A study of Mus musculus with 6 samples.

Results

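The mitochondrial genome of the mouse is a circle of 16299 bases that the build GRCm39 lists as chrM. The genes described here are all 37 genes that the GENCODE mouse annotation places on it, out of 56953 genes in the table. They were picked by position alone, with no use of their values, and comprise 13 protein-coding genes, 2 rRNA genes and 22 tRNA genes. RNA was sequenced from untreated MEFs, the fibroblasts of connective tissue put into culture from mouse embryos. The label of 3 libraries is WT and that of the other 3 is GαqKO. The study's methods describe the second line as cells without Gαq and Gα11, the G protein subunits encoded by Gnaq and Gna11, and both lines as gifts from another laboratory. Whether each genotype is 1 clone or several embryos is not stated, so genotype and line of origin cannot be told apart.

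Both strands of the mitochondrial genome are copied along nearly their whole length into long precursor RNAs. In most places a tRNA lies between neighbouring protein-coding or rRNA genes, and enzymes that cut at both ends of the tRNAs release the other RNAs. The rRNAs build the mitochondrial ribosome, the tRNAs serve it, and it makes only core subunits of the respiratory complexes I, III and IV and of the ATP synthase, complex V. All other parts of these complexes, and all proteins that copy, cut, tail or degrade mitochondrial RNA, come from nuclear genes. Because transcripts are made together, differences between their levels can reflect cutting, tailing and decay as well as transcription. Most genes (28 of 37) are read from the heavy-strand transcript, and mt-Nd6 and 8 tRNA genes are read from the light-strand transcript.

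Some stretches of sequence are needed to read the values below. The first runs 5′ to 3′ along the light-strand transcript through mt-Tc and mt-Tn, the genes with the largest fall (chrM:5089-5257, GRCm39, minus strand). Its capitals mark the 32 bases between them, where replication of the light strand is known to start. The second spans the end of the large rRNA gene mt-Rnr2, the whole of mt-Tl1 in capitals, and the start of mt-Nd1 (chrM:2636-2790, plus strand), and the known binding site of the terminator protein MTERF1 lies within mt-Tl1. The third is mt-Tp, a light-strand tRNA that rose (chrM:15356-15422, minus strand), with its anticodon in capitals.
mt-Tc to mt-Tn: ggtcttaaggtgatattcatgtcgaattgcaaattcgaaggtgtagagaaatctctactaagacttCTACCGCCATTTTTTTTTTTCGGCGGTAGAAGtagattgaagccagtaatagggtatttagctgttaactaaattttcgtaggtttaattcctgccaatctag
mt-Rnr2 end, mt-Tl1, mt-Nd1 start: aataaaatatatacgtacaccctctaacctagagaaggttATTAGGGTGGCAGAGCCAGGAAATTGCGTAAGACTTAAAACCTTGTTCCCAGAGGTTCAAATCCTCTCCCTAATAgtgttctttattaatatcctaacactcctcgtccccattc
mt-Tp: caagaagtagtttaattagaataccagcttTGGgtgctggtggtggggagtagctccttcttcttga

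The nuclear genome holds a near-identical copy of part of the mitochondrial genome, and where reads fit both places the count depends on how the aligner and counter treat them. The stretch chrM:6390-11042 matched chr1:24650616-24655269 on the minus strand over 4654 aligned bases at 99.9% identity. The copy differs at 2 substitutions and 1 added base, with positions counted along chrM and the mitochondrial base given first. A6393T lies in mt-Co1, T9461C lies in mt-Nd3, and the added A lies in mt-Tr. The windows around the substitutions are shown with the differing base in capitals.
mt-Co1, chrM:6390-6408: ggaAttgttttatccaact
chromosome 1 copy of this window: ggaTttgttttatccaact
mt-Nd3, chrM:9446-9476: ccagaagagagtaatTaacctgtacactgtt
chromosome 1 copy of this window: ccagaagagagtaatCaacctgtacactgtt

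The genes inside the copied stretch were nearly empty in every library of both groups. Of the 11 genes wholly inside it, 7 were listed at 0 in all 6 libraries, namely mt-Atp8, mt-Nd4l and the tRNA genes mt-Ts1, mt-Td, mt-Tk, mt-Tg and mt-Tr. mt-Nd3 had a single value above 0. mt-Co2, mt-Atp6 and mt-Co3, which encode core subunits of cytochrome oxidase and the ATP synthase, had counts, but the highest value was 233.6 normalized counts. The 5 protein-coding genes outside the stretch had between 4427 and 70612 normalized counts, and mt-Co1 and mt-Nd4, which lie inside it for 31.3% and 63.6% of their length, had between 8237 and 87119. Per kilobase of gene length, the WT means were 192 normalized counts for mt-Co2, 233 for mt-Atp6 and 266 for mt-Co3, against 8914 for mt-Nd6, the lowest protein-coding gene outside. The 7 nuclear pseudogenes that overlap the copy were not the place where many reads were counted either. The highest of their values was 69.9 normalized counts, for Gm28437, the pseudogene that matches mt-Co3. In 7 nuclear matches of the mitochondrial genome in all (at least 95% identity over at least 300 bases) there were 11 annotated genes, of which 4 passed the filter on low values given below, and none of these passed the test. Gm28439 had 7.65 ± 4.32 normalized counts in WT and 9.28 ± 4.32 in GαqKO-labelled libraries (SD, n = 3 each), Gm28437 59.8 ± 11.8 and 56.5 ± 14.1, Atp6-ps 22.9 ± 3.95 and 24.8 ± 8.34, and Gm28661 34.3 ± 3.35 and 44.9 ± 5.06. Together the 7 matches cover 100% of mt-Co1, 63.6% of mt-Nd4, 52.4% of mt-Nd5, 49.2% of mt-Nd2 and 23.4% of mt-Rnr2. How reads that fit more than 1 place were treated is not given in the sources used here, so the levels of the 11 genes are not ranked with the others, and its part in the low values was not tested.

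**Figure D1:**
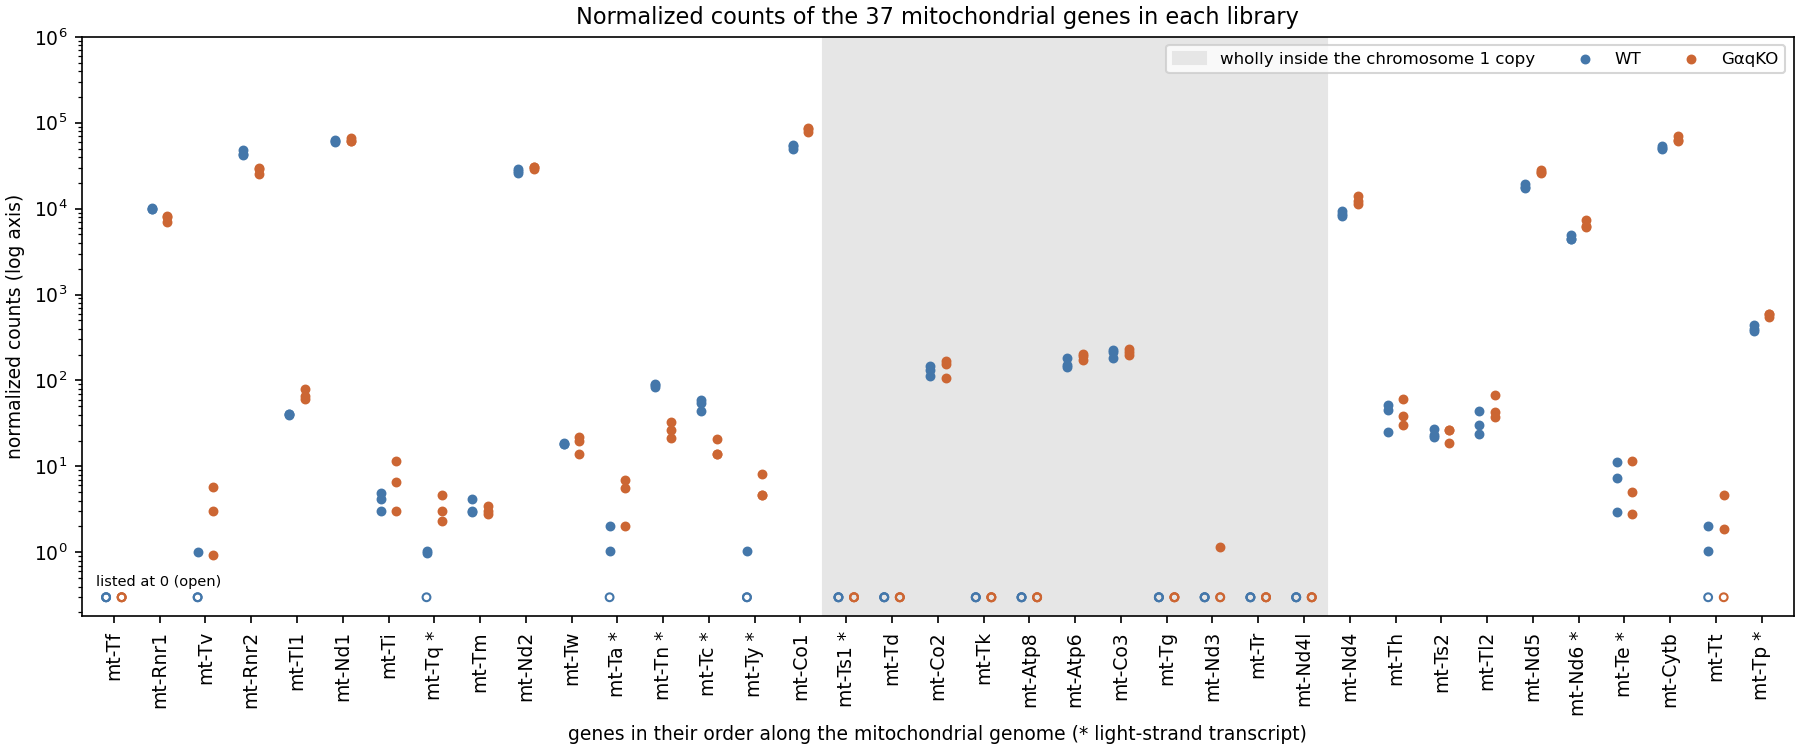
Normalized counts (log axis) of the 37 mitochondrial genes in each of the 6 libraries, in the order of the genes along the genome, with WT in blue, GαqKO-labelled in orange, values of 0 as open circles at the bottom, and the genes wholly inside the chromosome 1 copy shaded. The 3 shaded genes with counts in every library reach at most 233.6 normalized counts, and mt-Tn and mt-Tc are lower in all 3 GαqKO-labelled libraries.

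The values are normalized counts, that is, read counts divided by 1 size factor per library, and they summed to between 11392429 and 11483486 per library. Reads recovered from these values in 5 libraries ranged from 9853000 to 12229175, of which 263638 to 344020 were mitochondrial, so counting error is small for the mRNAs and rRNAs and large for most tRNAs. Gna11 fell from 2148 ± 29.0 normalized counts in WT to 451.6 ± 28.7 in the libraries labelled GαqKO, whereas Gnaq was at 1691 ± 48.5 and 1926 ± 36.0, so the RNA level of Gnaq does not follow the label. At the level of protein, the study reports a lack of Gαq in its GαqKO MEFs by Western blot and immunofluorescence. Of 12 fibroblast markers, 11 were tested, 5 were higher and 6 lower. The abundant ones were present in both groups and lower in the libraries labelled GαqKO, such as Vim (41785 ± 2519 and 33508 ± 729 normalized counts) and Col1a1 (16671 ± 1168 and 5774 ± 272). The WT libraries had little RNA of the fibroblast genes Pdgfra (19.6 ± 2.23 normalized counts) and Dcn (32.1 ± 3.00). In GαqKO-labelled libraries these were at 2320 ± 42.0 and 1663 ± 53.8. Lum was nearly absent from both groups (0 and 2.98 ± 1.59) and was not tested. The epithelial markers together had between 515.0 and 540.9 normalized counts in WT and between 10.1 and 23.1 in GαqKO-labelled libraries. Most of the WT sum came from Krt14 (258.0 ± 3.97) and Cdh1 (238.2 ± 3.06). Krt8 and Krt18 were also lower but not tested, and Epcam was at 3.05 ± 2.10 and 4.64 ± 2.99. Tnnt2, a muscle troponin, was at 753.0 ± 38.6 and 6.49 ± 1.36. The other muscle markers showed no such difference: Des did not pass the test, and Myod1, Myog and Actc1 were too low to test. The part of these differences in the results below was not tested.

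The share of normalized counts that came from mitochondrial genes was somewhat higher in the libraries labelled GαqKO. This share includes few counts of the genes wholly inside the chromosome 1 copy. Its rRNA part is only what was kept by the selection for poly-A tails described below. Mitochondrial genes took 2.42%, 2.55% and 2.35% of all normalized counts in the 3 WT libraries. They took 2.81%, 3.02% and 2.69% in the 3 GαqKO-labelled libraries, all above the WT values. The means were 2.44% ± 0.101 and 2.84% ± 0.166 (SD, n = 3 each), a difference of 0.400 percentage points (exact two-sided permutation test, p = 0.1, the smallest that 3 against 3 libraries allow). Over the 24 genes with no base in the chromosome 1 copy, a choice made after seeing the data, the shares were 1.90% ± 0.0759 and 1.99% ± 0.118 and the groups overlapped (exact permutation test, p = 0.4). That set holds both rRNAs, which fell, and leaves out mt-Co1 and mt-Nd4, which rose. Without the rRNAs and tRNAs, the mitochondrial share was 1.96% ± 0.0780 in WT and 2.52% ± 0.150 in GαqKO-labelled libraries, with no overlap (exact permutation test, p = 0.1, the smallest possible). In bulk RNA, more mitochondrial RNA per cell and a different mixture of cells cannot be told apart.

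Within the mitochondrial total, the balance between ribosomal and messenger RNA differed far more than the total did. The rRNAs made up 19.4%, 19.7% and 19.5% of the mitochondrial total in WT and 11.8%, 10.7% and 10.6% in the libraries labelled GαqKO. The share dropped by 8.49 percentage points, against an SD of 0.163 in WT and 0.670 in GαqKO-labelled libraries (exact two-sided permutation test, p = 0.1, the smallest possible). Protein-coding transcripts rose in share from 80.2% ± 0.165 to 88.7% ± 0.668, again with no overlap. In summed normalized counts the rRNAs were lower by 18700 (54524 ± 2699 in WT, 35824 ± 2942 in GαqKO-labelled libraries), and the protein-coding transcripts were higher by 63865. The ratio of rRNA to protein-coding counts was 0.243 ± 0.00253 in WT and 0.125 ± 0.00853 in GαqKO-labelled libraries. The tRNA share was small in both groups (0.258% ± 0.00584 and 0.265% ± 0.00573) and overlapped. The libraries were made with an mRNA kit that selects poly-A tails. Mitochondrial rRNAs carry only short tails, so the values give the rRNA that passed this selection.

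**Figure D2:**
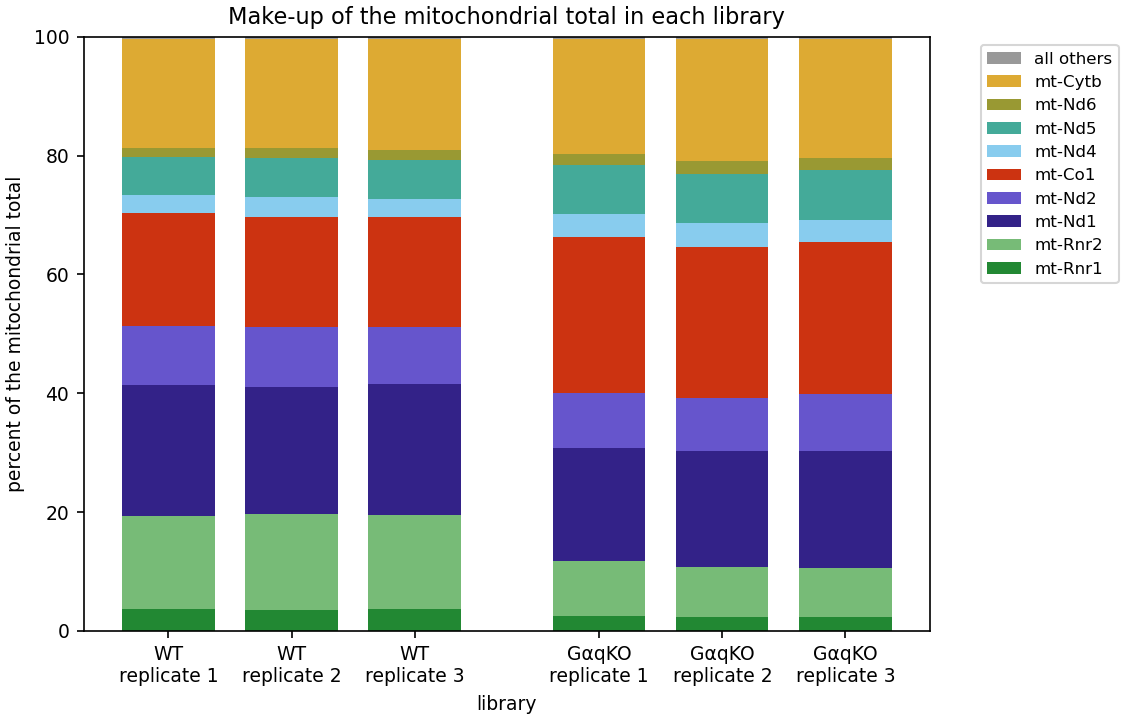
Stacked bars of the percent of the mitochondrial total taken by each of 9 transcripts in each library, with all 28 others in grey at the top, where they are too small to see. The dark and light green rRNA segments end near 19.5% in the 3 WT libraries and near 11.0% in the 3 GαqKO-labelled libraries, and the red mt-Co1 segment is wider in the latter.

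For each gene, limma was fitted to log2(normalized count + 1) over 14096 genes that reached 10 normalized counts in 3 or more libraries, and a gene passed with a Benjamini-Hochberg adjusted p under 0.05. Of the 37 mitochondrial genes, 20 were tested: 10 protein-coding genes, both rRNA genes and 8 tRNA genes. Among them 8 were higher in the libraries labelled GαqKO and 4 lower, beside 31.8% and 34.1% of all genes tested, or 65.8% in either direction. Past a log2 change of 1 in size, 0 of 20 were higher and 2 lower, beside 10.2% and 10.5% of all genes. The groups did not overlap for 7 genes that were higher and 4 that were lower, beside 33.8% and 35.8% of all genes. These shares do not set the mitochondrial genes apart as a group, and the median log2 change over the 20 was 0.12, against -0.01 over all genes tested. By kind of RNA, 6 of 10 protein-coding genes were higher and 0 lower, both rRNA genes were lower, and of 8 tRNA genes 2 were higher and 2 lower. A difference between the kinds was not tested. Of the 4 protein-coding genes that did not pass, 3 lie wholly inside the chromosome 1 copy.

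**Figure D3:**
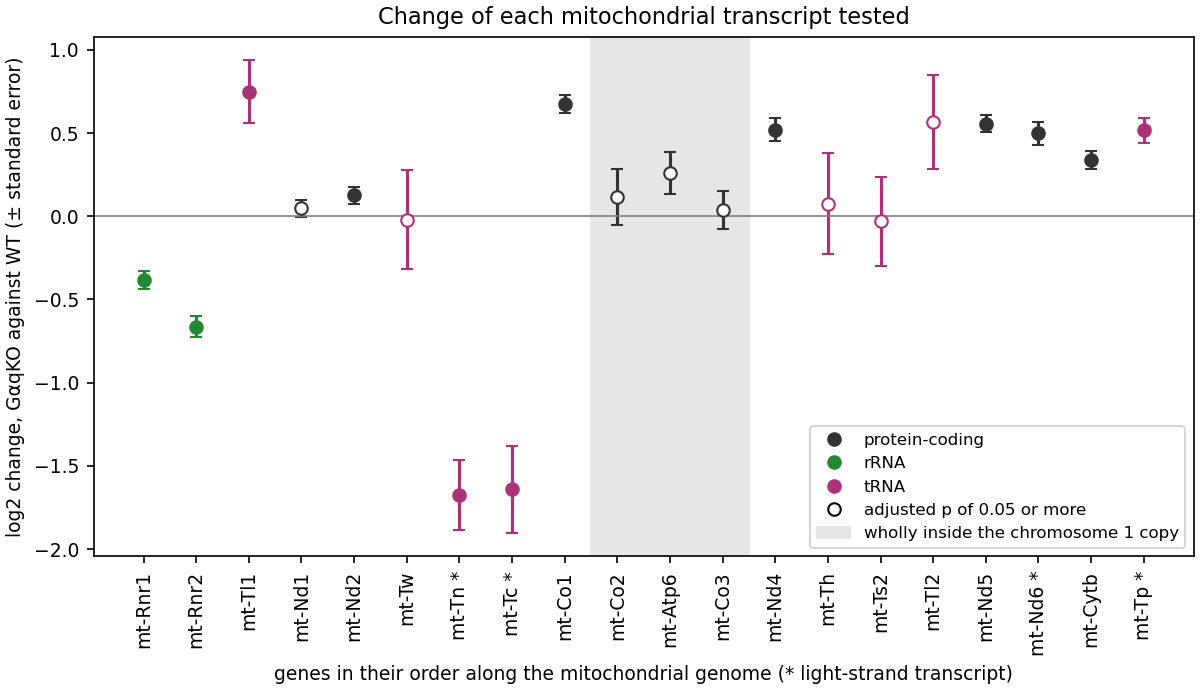
Log2 change of the 20 tested mitochondrial genes, GαqKO-labelled against WT libraries, with standard errors, in the order of the genes along the genome. Filled points have an adjusted p under 0.05, and both rRNAs (green), mt-Tn and mt-Tc lie below 0 while mt-Co1 and the genes from mt-Nd4 to mt-Tp that passed lie above it.

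Both rRNAs were lower in the libraries labelled GαqKO. mt-Rnr2 (chrM:1094-2675), the large-subunit rRNA, was at 43578, 47496 and 42310.0 normalized counts in WT and at 30040.3, 28774 and 25466 in GαqKO-labelled libraries. No library of one group reached the range of the other. It fell by 0.66 on the log2 scale (SE 0.0621, limma adjusted p = 4.77e-07), or 1.58-fold. mt-Rnr1 (chrM:70-1024), the small-subunit rRNA and the first of the pair on the transcript, was at 10192, 10023 and 9972 in WT and at 8122, 8016 and 7054 in GαqKO-labelled libraries. It fell by less, 0.38 on the log2 scale (SE 0.0515, limma adjusted p = 1.75e-05). The ratio of mt-Rnr2 to mt-Rnr1 counts within a library was 4.42 ± 0.277 in WT and 3.63 ± 0.0581 in GαqKO-labelled libraries, with no overlap (exact permutation test, p = 0.1, the smallest possible).

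Directly downstream of mt-Rnr2 the direction changed from 1 gene to the next. mt-Tl1 (chrM:2676-2750), the leucine tRNA that touches the rRNA gene with no base between them, was at 40.7, 39.8 and 40.7 normalized counts in WT and at 65.7, 79.8 and 61.4 in GαqKO-labelled libraries. It was thus higher in all 3 (log2 change 0.75, SE 0.189, limma adjusted p = 0.00325). mt-Nd1 (chrM:2751-3707), which encodes a membrane subunit of complex I, was at 61150, 62220 and 58986 in WT and at 61063, 67173 and 60500.4 in GαqKO-labelled libraries. These ranges overlap, and its log2 change of 0.05 did not pass (limma adjusted p = 0.42). The ratio of mt-Rnr2 to mt-Nd1, genes on the same heavy-strand transcript with only mt-Tl1 between them, was 0.713, 0.763 and 0.717 in WT and 0.492, 0.428 and 0.421 in GαqKO-labelled libraries. Reads that cross a boundary between these genes may be counted for either, both or neither, since the treatment of reads over more than 1 gene is not given in the sources used here.

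Among the protein-coding transcripts mt-Co1 changed most. It encodes the catalytic subunit of cytochrome oxidase, complex IV (chrM:5328-6872). It was at 52918, 54417 and 49503 normalized counts in WT and at 84949, 87119 and 78438 in GαqKO-labelled libraries, where every value exceeded every WT value. The log2 change was 0.68 (SE 0.0535, limma adjusted p = 8.63e-08), or 1.60-fold. Its ratio to mt-Nd1 was 0.860 ± 0.0183 in WT and 1.33 ± 0.0545 in GαqKO-labelled libraries. The other complex IV genes of the mitochondrial genome, mt-Co2 and mt-Co3, lie wholly inside the chromosome 1 copy and had few counts. mt-Co1 thus carried nearly all counts of the complex, and the share of complex IV is in effect that of mt-Co1. The complex IV share of the mitochondrial total was 18.8% ± 0.340 in WT and 25.9% ± 0.499 in GαqKO-labelled libraries.

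The complex I transcripts differed among themselves. mt-Nd5 (chrM:11742-13565), a proton-pumping subunit, was at 17446, 19478 and 17814 normalized counts in WT and at 26353, 28412 and 25724 in GαqKO-labelled libraries (log2 change 0.56, SE 0.0523, limma adjusted p = 4.99e-07). mt-Nd4 (chrM:10167-11544), a related pumping subunit, was at 8548, 9435 and 8237 in WT and at 12419, 13909.6 and 11362 in GαqKO-labelled libraries (log2 change 0.52, SE 0.0676, limma adjusted p = 1.24e-05). Both were higher with no overlap between the groups. mt-Nd6 (chrM:13552-14070), the only protein-coding gene of the light-strand transcript, was at 4462, 4991 and 4427 in WT and at 6044, 7399.9 and 6211 in GαqKO-labelled libraries (log2 change 0.50, SE 0.0698, limma adjusted p = 2.55e-05). mt-Nd2 (chrM:3914-4951) was at 27171, 29292 and 26072 in WT and at 30148, 30817 and 28988 in GαqKO-labelled libraries. Its ranges overlapped, and its log2 change of 0.13 (SE 0.0494) passed with little to spare (limma adjusted p = 0.0383). It missed the threshold without WT replicate 1 or 3, without GαqKO replicate 1 or 2, and without a trend in the prior spread, with limma adjusted p between 0.0636 and 0.14. As a sum, complex I transcripts took 43.0% ± 0.107 of the mitochondrial total in WT and 42.8% ± 0.624 in GαqKO-labelled libraries, and the groups overlapped (exact permutation test, p = 0.8). That sum holds almost no counts of mt-Nd3 and mt-Nd4l, which lie wholly inside the chromosome 1 copy.

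mt-Cytb (chrM:14145-15288), the only complex III gene of the mitochondrial genome, was at 50505, 53218 and 49869.5 normalized counts in WT and at 62474, 70612 and 61493 in GαqKO-labelled libraries. It was higher in all 3, by 0.34 on the log2 scale (SE 0.0561, limma adjusted p = 0.000117), less than mt-Co1 or mt-Nd5. The genes inside the copied stretch gave no call. mt-Co2 had 131.1 ± 16.8 normalized counts in WT and 143.7 ± 31.6 in GαqKO-labelled libraries, mt-Co3 208.8 ± 23.0 and 214.0 ± 19.1, and mt-Atp6, a channel subunit of the ATP synthase, 158.4 ± 22.3 and 189.2 ± 15.2 (limma adjusted p = 0.569, 0.785 and 0.0827). mt-Atp6 passed without WT replicate 1 (log2 change 0.37, limma adjusted p = 0.0176). Their ranges overlapped between the groups.

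Of the 22 tRNA genes, 8 passed the filter, 8 had counts that never exceeded 11.6, and 6 were listed at 0 everywhere, 5 of them inside the copied stretch and the other being mt-Tf. tRNA genes here are 59 to 75 bases long, and the read length was 150 bases, so a read of full length counted for one of them reaches past the gene. Whether these counts follow mature tRNA was not tested. The genes with counts under the filter were mt-Tv, mt-Ti, mt-Tq, mt-Tm, mt-Ta, mt-Ty, mt-Te and mt-Tt.

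Among the 20 genes tested, the largest changes were falls of a neighbouring pair of light-strand tRNAs. mt-Tn (chrM:5089-5159), the asparagine tRNA, was at 89.8, 83.5 and 89.6 normalized counts in WT and at 21.6, 26.6 and 33.2 in the libraries labelled GαqKO. mt-Tc (chrM:5192-5257), the cysteine tRNA, was at 54.3, 43.7 and 60.1 in WT and at 14.1, 20.8 and 14.1 in GαqKO-labelled libraries. In neither gene did a library of one group reach the range of the other. mt-Tn fell by 1.68 on the log2 scale (SE 0.209, limma adjusted p = 8.53e-06) and mt-Tc fell by 1.64 (SE 0.26, limma adjusted p = 7.98e-05), which is 3.19-fold and 3.12-fold. The genes sit on either side of the 32-base replication origin printed above, and may share reads. Their neighbours in the same cluster of 5 tRNA genes gave no such call. mt-Tw, on the other strand, was at 18.5 ± 0.244 and 18.6 ± 4.26 and did not pass, and mt-Ta and mt-Ty, which did not exceed 8.06, were not tested. These 2 had higher means in GαqKO-labelled libraries, mt-Ta at 1.03 ± 1.02 and 4.86 ± 2.55 normalized counts and mt-Ty at 0.348 ± 0.603 and 5.79 ± 1.96. mt-Tn and mt-Tc also lie wholly inside a second nuclear match on chromosome 2, with 97.4% identity over 3260 bases, whose 3 annotated genes were listed at 0. The same match holds the whole of mt-Co1, mt-Tw, mt-Ta and mt-Ty.

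Light-strand genes did not move as a set. mt-Tp, the proline tRNA at the start of the light-strand transcript, was at 377.0, 439.1 and 395.9 normalized counts in WT and at 597.2, 587.4 and 548.8 in GαqKO-labelled libraries (log2 change 0.52, SE 0.0748, limma adjusted p = 3.44e-05). Like mt-Nd6 it was higher in all 3 libraries. Of the 4 light-strand genes tested, 2 were thus higher and 2 lower, and their joint share of the mitochondrial total was 1.85% ± 0.0524 in WT and 2.21% ± 0.137 in GαqKO-labelled libraries, mostly from mt-Nd6. The kit keeps strand, but the strand setting of the counting is not given in the sources used here. Without it, RNA of these genes and heavy-strand precursor RNA from the opposite strand cannot be told apart. On the heavy strand, mt-Tl2 was at 24.0, 44.7 and 30.5 in WT and at 43.2, 68.2 and 37.3 in GαqKO-labelled libraries and did not pass (limma adjusted p = 0.0957). Its log2 change of 0.57 moved to 0.80 and passed without WT replicate 2 (limma adjusted p = 0.0258), passed in edgeR on 5 libraries (0.75, adjusted p = 0.0371), and moved to 0.32 without GαqKO replicate 2 and 0.37 without WT replicate 1. mt-Th (40.8 ± 13.5 and 42.9 ± 15.4) and mt-Ts2 (24.2 ± 2.72 and 23.9 ± 4.40) did not pass either.

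**Figure D4:**
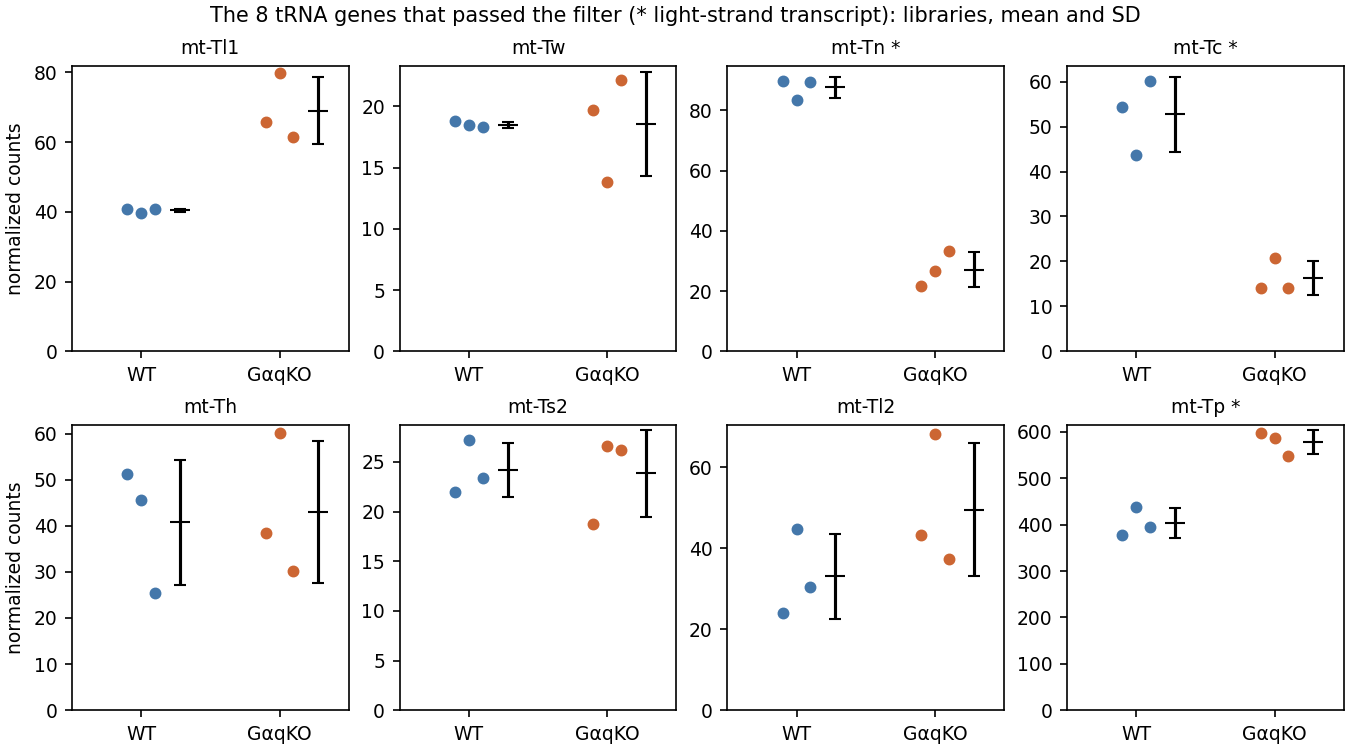
Normalized counts of the 8 tRNA genes that passed the filter, 1 panel per gene with its own axis from 0, showing each library as a point and the mean with SD beside it. mt-Tn and mt-Tc are lower in all 3 GαqKO-labelled libraries, mt-Tl1 and mt-Tp are higher in all 3, and the groups overlap in the other 4 genes.

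Taking out the common change of the mitochondrial total leaves the differences within the genome. After each library was scaled to the same mitochondrial total, 6 of the 20 genes were higher in the libraries labelled GαqKO, 4 were lower and 10 did not pass, beside 19.2% and 45.2% of all genes under this scaling, which moves every other gene down. The rRNAs fell further on this scale, mt-Rnr2 by 0.88 and mt-Rnr1 by 0.60 (limma adjusted p = 1.45e-08 and 4.6e-07). mt-Co1 stayed higher by 0.46 (limma adjusted p = 0.000328), mt-Nd5 by 0.34, mt-Nd4 by 0.30 and mt-Nd6 by 0.28. mt-Tl1 was higher by 0.54 and mt-Tp by 0.30. The call of mt-Tl1 was lost without WT replicate 2 or GαqKO replicate 1 or 2 (limma adjusted p = 0.0672, 0.0517 and 0.0789), and that of mt-Tp without GαqKO replicate 1 (limma adjusted p = 0.0501). On this scale mt-Tn and mt-Tc were lower by the log2 changes -1.89 and -1.85. mt-Cytb, at 0.12, no longer passed (limma adjusted p = 0.283), and neither did mt-Nd2 at -0.09 or mt-Nd1 at -0.17. The total itself contains the rRNAs, so the choice of reference matters. Scaled to the sum of the 13 protein-coding genes instead, 2 genes were higher, mt-Co1 and mt-Nd5, and 7 were lower. This scaling also moves every other gene down, and the share of all genes called under it was not counted.

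As shares of the mitochondrial total, 14 of the 20 genes did not overlap between the groups, 7 higher and 7 lower. On the level scale 33.8% of all genes tested were higher and 35.8% lower without overlap. The matching share on this scale was not counted, so the 14 do not set the mitochondrial genes apart. The largest shift in percentage points was in mt-Rnr2, from 15.9% ± 0.309 to 8.66% ± 0.555, followed by mt-Co1, from 18.7% ± 0.328 to 25.7% ± 0.494. mt-Nd1, whose level did not pass, went from 21.8% ± 0.405 to 19.4% ± 0.437 of the total, since shares of 1 library sum to 100. With 3 against 3 libraries the exact permutation test could not go below 0.1, or 0.143 after Benjamini-Hochberg adjustment over the 20 genes.

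Levels of different genes can be compared only per length, and per kilobase the order of the transcripts changed between the groups. For mt-Co1 and mt-Nd4 the length outside the chromosome 1 copy was used, a choice made after seeing the data. For mt-Co1 that length lies inside the less similar match on chromosome 2. In WT, mt-Nd1 was highest at 63516.5 ± 1721 normalized counts per kilobase, followed by mt-Co1 at 49227.5 ± 2372 and mt-Cytb at 44753 ± 1554. In the libraries labelled GαqKO, mt-Co1 was highest at 78627 ± 4254, above mt-Nd1 at 65739 ± 3867 and mt-Cytb at 56695.5 ± 4375. The ranges of these neighbours did not overlap within either group. Over its full length, mt-Co1 had means of 33838 per kilobase in WT and 54047 in GαqKO-labelled libraries, under those of mt-Nd1 and mt-Cytb. Its first place thus rests on the length used. In GαqKO-labelled libraries its full-length values (50769 to 56388) overlapped with those of mt-Cytb (53753 to 61723).

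Lower in the order, mt-Rnr2 at 28104.5 ± 1709 normalized counts per kilobase overlapped with mt-Nd2 at 26504.6 ± 1577 in WT. In GαqKO-labelled libraries mt-Rnr2 stood at 17758 ± 1493, below mt-Nd2 (28887 ± 891) and mt-Nd4 (25027 ± 2549), with no overlap. Over its full length mt-Nd4 stood at 9117 ± 929 per kilobase in these libraries, below mt-Rnr2, so that order too rests on the length used. mt-Rnr1 overlapped with mt-Nd5, and mt-Nd5 with mt-Nd6, at 10537 ± 121, 10003 ± 593 and 8914 ± 609 per kilobase in WT. In GαqKO-labelled libraries mt-Rnr1 was last at 8095 ± 616, below mt-Nd5 (14709 ± 771) and mt-Nd6 (12624 ± 1424). The rRNA values give only the rRNA that passed the poly-A selection. The places of the rRNAs therefore do not rank them against the mRNAs in the RNA of the cells.

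Nuclear genes that act on mitochondrial RNA and DNA gave no single direction. Over 6 lists with 55 genes, of which 52 were tested, 21 were higher (40.4%) and 10 lower (19.2%), beside 31.8% and 34.1% of all genes tested, with a median log2 change of 0.14. Of 10 transcription genes 2 were higher and 3 lower. Polrmt, the mitochondrial RNA polymerase, was at 620.1 ± 8.05 normalized counts in WT and 495.8 ± 40.7 in GαqKO-labelled libraries (log2 change -0.33, limma adjusted p = 0.0011). Tfam, which packages mitochondrial DNA and starts transcription, was also lower (1083 ± 24.9 and 839.5 ± 29.0, log2 change -0.37, limma adjusted p = 3.06e-05). Tfb2m, which opens the promoter with the polymerase, was higher (215.2 ± 0.449 and 390.9 ± 12.7, log2 change 0.86, limma adjusted p = 4.7e-07). Within the start of transcription, then, the polymerase and Tfam were lower while Tfb2m was higher. Tefm, the elongation factor, was at 231.3 ± 28.7 and 237.1 ± 9.89 and did not pass.

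RNA cleavage, tailing and decay genes were also mixed. Of the 4 cleavage genes, Hsd17b10 was higher and Elac2 and Trmt10c lower. Of 13 tested genes of tailing, stability and decay, 6 were higher and 1 lower, beside 31.8% and 34.1% of all genes. Mtpap, the mitochondrial poly-A polymerase, was at 514.5 ± 30.6 normalized counts in WT and 630.6 ± 6.29 in GαqKO-labelled libraries (log2 change 0.29, limma adjusted p = 0.00115). Lrpprc and Slirp, which together hold mitochondrial mRNAs stable, did not pass, with log2 changes of 0.15 and 0.04 (limma adjusted p = 0.0733 and 0.887). Fastkd5 was listed at 0.

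Of 11 tested genes of mitochondrial DNA replication and packaging, 8 were higher and 0 lower, beside the 31.8% and 34.1% of all genes. Top1mt, the mitochondrial topoisomerase, was at 104.5 ± 8.97 normalized counts in WT and 240.7 ± 19.2 in GαqKO-labelled libraries (log2 change 1.20, limma adjusted p = 9.09e-07). Mgme1, a nuclease that trims replication intermediates, was at 470.1 ± 25.9 and 1026 ± 4.06 (log2 change 1.13, limma adjusted p = 1.3e-09). Of 7 tested rRNA modification genes 3 were higher and 2 lower, and Trmt61b, a methyltransferase of mitochondrial RNA, was at 54.2 ± 16.5 and 146.8 ± 10.9 (log2 change 1.46, limma adjusted p = 1.71e-05). Of the 7 tested regulators of mitochondrial biogenesis 1 was higher and 2 lower. Ppargc1a, the best known of them, was too low to test, at 13.1 ± 8.33 and 5.27 ± 2.58.

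**Figure D5:**
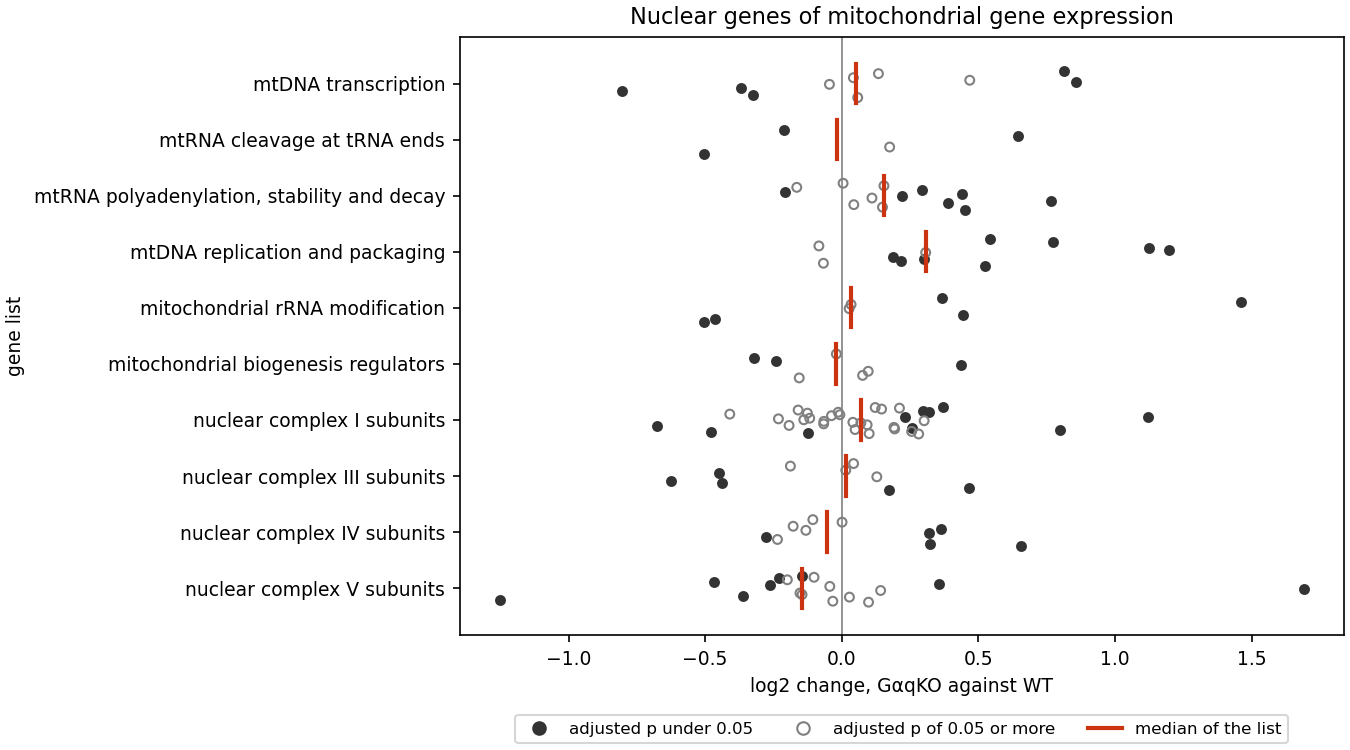
Log2 change of each tested nuclear gene, GαqKO-labelled against WT libraries, by list, with filled points for an adjusted p under 0.05 and a red bar at the median of each list. Points lie on both sides of 0 in every list, and the replication list has the highest median, 0.31.

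The nuclear subunits of the complexes that also hold mitochondrial subunits showed no common direction. Of 71 tested genes of complexes I, III, IV and V, 15 were higher (21.1%) and 13 lower (18.3%), both below the share of all genes, and the median log2 change was -0.01. In complex I, Ndufc1 rose most (log2 change 1.12, limma adjusted p = 0.00016) and Ndufb2 fell most (log2 change -0.68, limma adjusted p = 0.000976). In complex III, these were Uqcrc2 (0.47, limma adjusted p = 0.00409) and Uqcrh (-0.62, limma adjusted p = 0.00044). In complex IV, Cox4i1, the subunit through which ATP regulates the enzyme, rose from 1073 ± 87.0 to 1689 ± 105.3 normalized counts (log2 change 0.66, limma adjusted p = 9.47e-07), and Cox7b fell (log2 change -0.28, limma adjusted p = 0.023). In complex V, Atp5f1e rose from 54.6 ± 1.01 to 179.2 ± 21.4 (log2 change 1.69, limma adjusted p = 2e-07), and Atp5if1, which inhibits the enzyme when it runs backwards, fell from 674.2 ± 69.7 to 281.9 ± 11.2 (log2 change -1.25, limma adjusted p = 1.28e-08). Atp5if1 is an inhibitor that the list counts with the subunits. Among the complex V subunits themselves, Atp5mc1 fell most (log2 change -0.47, limma adjusted p = 0.00228).

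Values of other RNAs that lack a poly-A tail stand beside those of the rRNAs and tRNAs, because the libraries were selected for such tails. Of 15 such genes found, 5 were tested, 2 were higher (H2bc4 and H1f2) and 1 lower (H1f4), with log2 changes of 1.70, 0.75 and -1.83. Rn7sk, a polymerase III transcript, was at 85.1 ± 12.9 normalized counts in WT and 85.1 ± 17.4 in GαqKO-labelled libraries. Summed, the list was at 233.1 to 240.2 normalized counts in WT and at 244.7 to 366.2 in GαqKO-labelled libraries, above every WT value. Its genes had no common direction, since H1f2 and H2bc4 rose while Rn7sk was level and H1f4 fell. The part of poly-A selection in the rRNA result was not tested. Of the 3 RNAs tested from a list of nuclear-retained RNAs, 2 were lower, beside 34.1% of all genes tested. These were Norad (log2 change -1.52) and Neat1 (log2 change -0.73), and Malat1 did not pass.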

How the data were processed

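The deposited values are a signal: gene counts that the authors divided by 1 size factor per library, not raw counts. The authors selected poly-A RNA, aligned paired-end reads of 150 bases to GRCm39 with Rbowtie2, and counted with featureCounts on GENCODE release 32. Tool versions, the strand setting and the treatment of reads that fit several places or genes are not given in the sources used here. Genes were named with GENCODE release 39, which matched 56310 of 56953 identifiers (98.9%), and 643 were not matched.

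Nuclear matches of chrM were found with BLAST 2.17.0 (e-value 1e-20, at least 95% identity over 300 bases). limma 3.58.1 in R 4.3.3 was fitted to log2(normalized count + 1), letting the prior spread follow a trend, over genes that reached 10 normalized counts in 3 or more libraries. Fold changes are on this scale and understate low genes. Shares and ratios were compared with exact two-sided permutation tests. The labels put 3 libraries in each genotype, which the series calls biological replicates. Pairs of replicates differed by more than counting noise, with a chi-square per gene of 2.38 to 5.10.

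In 5 libraries 100% of the values above 0 were whole reads once divided by the value of 1 read (tolerance 0.01). edgeR 4.0.16 and DESeq2 1.42.0 were run on these reads as alternatives. GαqKO replicate 3 was left out of them because its step was too near 1. The mitochondrial genes are all genes of chrM, but that this set was examined, and which nuclear lists, was decided with earlier results of these data known. All tested mitochondrial genes are named, with a fixed set of nuclear regulators, any listed regulator past a log2 change of 1, and the largest rise and fall of each complex. Cleavage genes, Fastkd5, Atp5mc1, the histone genes, Norad, Neat1 and Malat1, and the markers named were picked after their values were seen. On simulated libraries limma recovered 182 of 200 changed genes among 13719 tested, with 11 false calls, of which 1 was past the fold threshold. The simulation gave all genes the same spread and changed far fewer genes than were called here. Its changed genes were all well above the filter. These figures are therefore not error rates of the tests above, least of all for the tRNAs.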

Additional observations from a re-analysis of the deposited data

How the results depend on the processing

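Across 16 alternatives (2 other scalings, 2 filters, pseudocounts of 0.5 and 5, no trend in the prior spread, a replicate block, edgeR and DESeq2 on the recovered reads of 5 libraries, and each library left out) 7 to 9 mitochondrial genes were higher, 4 were lower, and 2 were lower past a log2 change of 1. Of the 12054 to 26091 genes tested in these alternatives, 3538 to 4678 were higher and 3870 to 4947 lower. The share of all genes past a log2 change of 1 was not counted under them. For 12 of the 20 genes no alternative moved the result across the threshold or turned its direction: both rRNAs, mt-Tl1, mt-Tn, mt-Tc, mt-Tp, mt-Nd1, mt-Co1, mt-Nd4, mt-Nd5, mt-Nd6 and mt-Cytb. Leaving out a library moved the difference in mitochondrial share between 0.312 and 0.476 percentage points and that in rRNA share between -8.87 and -8.27. Apart from mt-Tp, the tRNAs stayed under 100 normalized counts in every library, which limits the precision of their changes.

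No value that turned direction had passed its own test. With 1 library left out, the log2 change ran from -0.15 to 0.17 for mt-Tw, from -0.0070 to 0.31 for mt-Co2, from -0.053 to 0.10 for mt-Co3, from -0.22 to 0.29 for mt-Th and from -0.11 to 0.13 for mt-Ts2. Relative to the mitochondrial total it ran from -0.39 to 0.00061 for mt-Tw, from -0.22 to 0.053 for mt-Co2, from -0.062 to 0.16 for mt-Atp6 and from -0.41 to 0.060 for mt-Th. With the mean log2 of the tested genes as reference, mt-Nd1 was at 0.015, mt-Nd2 at 0.092, mt-Co2 at 0.081, mt-Co3 at 0.0042 and mt-Th at 0.043. With the 13 protein-coding genes as reference, mt-Atp6 was at -0.099 and mt-Cytb at -0.022, and 2 genes were higher and 7 lower instead of 6 and 4, since this reference rose more than the total. The share of all genes called with this reference was not counted.

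The replicate numbers gave no sign of pairing. Same-numbered deviations correlated at -0.045, -0.148 and -0.064, and no WT library correlated best with the GαqKO library of its own number. With 3 libraries per group these values cannot show whether libraries were prepared in pairs. With the replicate number as a block, 8 genes were higher and 4 lower, beside 4324 and 4638 of all 14096 genes tested. Relative to the mitochondrial total these numbers were 6 and 5, mt-Nd1 being added (limma adjusted p = 0.0331). The share of all genes called on that scale with the block was not counted.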
